A study of Rattus norvegicus with 28 samples.

Results

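The genotype difference in the response of INS-1 cells to 8 h of forskolin (FSK) was measured by bulk RNA-seq. It was defined as the change from untreated (CON) to FSK-treated Med14 S983A cells minus the same change in WT cells, on log2(TPM + 1), where TPM is the length-scaled abundance of a transcript. Of the 28 libraries of the series, 8 made up the comparison: 2 replicates each of WT CON, WT 8 h FSK, Med14 S983A CON and Med14 S983A 8 h FSK, with FSK at 10 µM. All were moved to serum-free medium before treatment. INS-1 is a rat insulinoma line that makes insulin, and the S983A cells carry a CRISPR knock-in in which an alanine replaces a serine of Med14. The knock-in lines grew from sorted single cells, and the study's methods say that its experiments used 2 such lines made independently. Whether the 2 replicates here come from 1 line or from both is not stated for these libraries, so a clone and the substitution cannot be told apart. The question was which genes respond differently to a rise in cAMP once this Med14 residue cannot be phosphorylated.

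FSK activates adenylyl cyclase, and the cAMP it produces activates protein kinase A. The kinase phosphorylates CREB, a transcription factor that binds the cAMP response element and induces a fast set of genes, many of which feed back on the pathway, before slower changes follow. Mediator is the multisubunit complex that connects transcription factors to RNA polymerase II, and Med14 is its scaffold.

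Depth ran from 42551133 to 51097557 fragments in 7 of the libraries and was 92635979 in replicate 2 of Med14 S983A 8 h FSK, and replicates correlated over genes with a Pearson r of 0.998 to 0.999. All 14 beta-cell markers found in the table were at 1 TPM or more in each of the 4 groups. Of 33 markers of other pancreatic and stromal cells, 4, 3, 3 and 2 reached 1 TPM in WT CON, WT 8 h FSK, Med14 S983A CON and Med14 S983A 8 h FSK. Gcg, which encodes glucagon, made up most of their sum. Med14 itself, which checks neither label because the knock-in changes a residue and not the amount, was at 21.5 and 20.3 TPM in WT CON, 25.5 and 25.9 in WT 8 h FSK, 19.6 and 20.3 in Med14 S983A CON and 30.0 and 27.3 in Med14 S983A 8 h FSK. Its response did not differ at the threshold (difference 0.215 ± 0.095 SE on the log2 scale, adjusted p = 0.0593 by limma).

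Among the 10275 genes tested, whose mean reached 1 TPM, the response differed between the genotypes for 1424, which is 13.9%. A gene was called by limma (two-sided) where its Benjamini-Hochberg adjusted p was under 0.05 and its change exceeded 1.5-fold. It was higher in Med14 S983A for 786 genes (7.65%) and lower for 638 (6.21%), and the median difference over all genes was 0.04. The balance of directions depended on scaling. Centring each library on its median gave 645 higher and 775 lower, and scaling on the spiked ERCC RNAs gave 557 higher and 937 lower and moved the median of all genes by -0.10. In bulk RNA, fewer cells with a transcript and less transcript per cell cannot be told apart. The study's methods call the replicates biological, but neither they nor the labels say what sets replicates apart, so each p measures only the spread between these libraries.

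**Figure D1:**
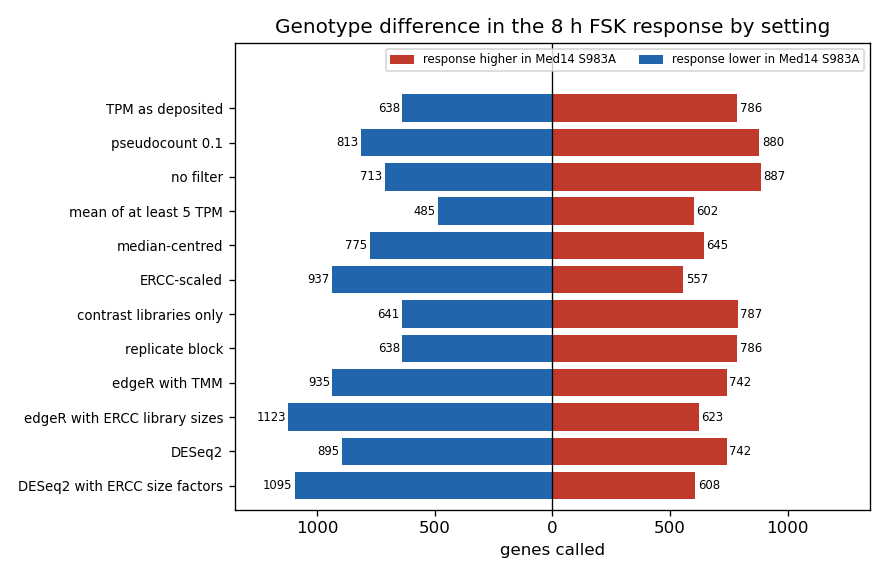
Genes called for the genotype difference in the 8 h FSK response, with the number of genes on the horizontal axis (lower to the left, higher to the right) and 1 bar per setting. TPM as deposited gave 786 higher and 638 lower, whereas ERCC scaling gave 557 and 937, so that lower calls outnumbered higher calls.

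The responses of the genotypes, which share no library, were alike in outline. In WT, 901 genes rose (8.77%) and 3579 fell (34.8%), and in Med14 S983A 1188 rose (11.6%) and 3550 fell (34.5%). Of the genes that rose, 719 did so in both genotypes, 79.8% of those in WT and 60.5% of those in Med14 S983A. Of the genes that fell, 2849 were shared, 79.6% of those in WT and 80.3% of those in Med14 S983A. The Pearson r of the changes was 0.858 over the 10275 genes, which are not independent replicates. With each library centred on its median the counts became 1930 risen and 1848 fallen in WT and 2225 risen and 2207 fallen in Med14 S983A.

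**Figure D2:**
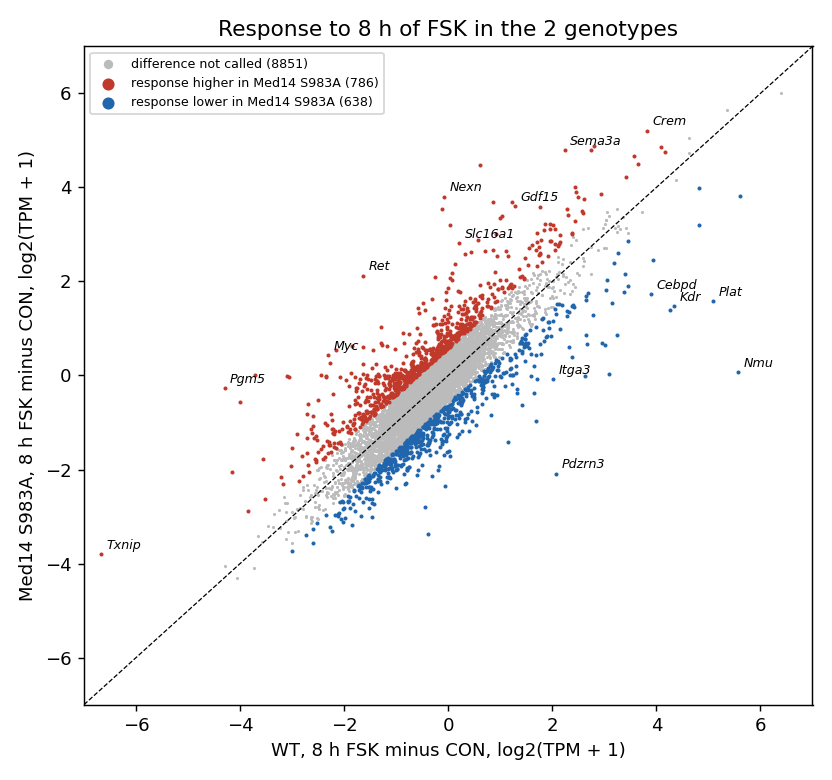
Change after 8 h of FSK on log2(TPM + 1) in WT (horizontal axis) and Med14 S983A (vertical axis), 1 point per gene, with the 786 higher and 638 lower differences coloured and the line of equal change dashed. Most points follow the line, Pdzrn3 and Ret lie in opposite quadrants, and Nmu, Plat and Kdr lie far to its lower right.

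The genes with a higher response in Med14 S983A were mostly of 2 kinds. Here and below, a gene passes in a genotype where it meets both the adjusted p and the fold threshold. Alone means that the other genotype did not pass. For 246 of the 786 (31.3%) the transcript fell in WT and did not pass the test in Med14 S983A, and for 181 (23%) it rose in Med14 S983A and did not pass in WT. A further 124 fell in both, 106 rose in both, 12 fell in WT and rose in Med14 S983A, and 117 passed in neither. Of the 638 genes with a lower response, 259 (40.6%) fell in both genotypes, 178 (27.9%) fell in Med14 S983A alone, 89 rose in WT alone, 68 rose in both, 6 rose in WT and fell in Med14 S983A, and 38 passed in neither. Over the higher genes the median change came to -0.55 for WT and 0.26 for Med14 S983A, and over the lower genes it was -0.35 and -1.24. At CON the levels of the higher genes already had a median genotype difference of -0.43 and those of the lower genes of 0.26, and after 8 h of FSK the corresponding values were 0.38 and -0.55. The CON libraries enter the difference itself, so these medians are a description.

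Pdzrn3, a PDZ and RING finger protein, had the lowest difference among called genes that reached 5 TPM in CON or 8 h FSK in each genotype (rn6, chr4:133717139-133951264). It was at 8.85 and 8.26 TPM in WT CON and rose to 38.7 and 39.4 TPM with FSK, whereas in Med14 S983A it fell from 10.0 and 9.91 to 1.56 and 1.59 TPM. The starting levels lay close together and the treated levels were far apart, with the Med14 S983A libraries below every other. The difference was -4.16 ± 0.09 (SE, adjusted p = 1.34e-20 by limma).

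Several genes that rose in WT did not meet both thresholds in Med14 S983A. Itga3, an integrin alpha subunit that binds laminin (rn6, chr10:82855841-82887727), rose 4.09-fold in WT, from 65.3 and 61.9 to 242 and 278 TPM, and was at 43.2 and 41.9 TPM before and 41.7 and 38.8 TPM after FSK in Med14 S983A. Ifngr1, the ligand-binding chain of the interferon gamma receptor (rn6, chr1:15062380-15080815), rose from 62.7 and 56.0 to 306 and 319 TPM in WT and was at 36.5 and 36.9 and then 47.9 and 49.3 TPM in Med14 S983A. In neither gene did the treated libraries of the genotypes overlap, and the differences were -2.09 ± 0.07 and -1.98 ± 0.07. Tcerg1l followed the same course, 3.32-fold up in WT against 0.769-fold in Med14 S983A, with a difference of -2.02. In Med14 S983A, Ifngr1 (log2 change 0.394) and Tcerg1l (-0.362) had an adjusted p under 0.05 by limma and missed the fold minimum. Itga3 there missed both (adjusted p = 0.16 by limma).

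Cebpd, a C/EBP transcription factor (rn6, chr11:89008008-89009146), rose in both genotypes but less in Med14 S983A. Its levels were 7.62 and 6.70 TPM in WT CON, 122 and 119 TPM in WT 8 h FSK, 7.48 and 7.98 TPM in Med14 S983A CON and 29.1 and 27 TPM in Med14 S983A 8 h FSK. The starting levels overlapped and the treated levels did not, and the difference was -2.17 ± 0.11 (adjusted p = 6.1e-14 by limma). Slc2a9, a urate and hexose transporter, rose 10.1-fold in WT and 1.61-fold in Med14 S983A, where it started from a higher level.

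For other genes in this direction the fall met both thresholds only in Med14 S983A. Anxa10, an annexin, was at 785 and 777 TPM and then 570 and 569 TPM in WT, and fell from 429 and 388 to 59.3 and 57.1 TPM in Med14 S983A (difference -2.33 ± 0.06). Tmod1, which caps the pointed ends of actin filaments, fell 5.05-fold in Med14 S983A against 1.26-fold in WT. In WT both genes fell at an adjusted p under 0.05 by limma and missed the fold minimum (log2 change -0.455 for Anxa10 and -0.305 for Tmod1). S100a3 and LOC691995 rose in WT and fell in Med14 S983A, with differences of -2.65 and -2.57. The entry Mir24-1, a short microRNA precursor, was called at -1.83 ± 0.32, with replicates at 4.75 and 8.38 TPM in WT 8 h FSK. Whether its reads came from the precursor or from an overlapping transcript was not tested.

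Ret, the receptor tyrosine kinase of the GDNF family (rn6, chr4:150204991-150244380), had the highest difference among called genes that reached 5 TPM in each genotype. In WT it fell from 54.6 and 51.1 to 15.3 and 17.4 TPM, and in Med14 S983A it rose from 0.469 and 0.464 to 6.15 and 4.69 TPM. The genotypes thus stood far apart at CON and drew closer under FSK, with the treated Med14 S983A libraries still below the treated WT libraries. The difference was 3.75 ± 0.12 (adjusted p = 4.4e-18 by limma).

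Myc, a driver of growth and biosynthesis (rn6, chr7:102586313-102591239), fell 5.26-fold in WT, from 69.4 and 70.5 to 12.9 and 13.7 TPM. In Med14 S983A it was at 55.5 and 56.5 TPM at CON and at 76.9 and 75.2 TPM after FSK, a change that did not pass the fold minimum. Only the treated WT libraries were low, and the difference was 2.75 ± 0.07. Hs3st1, a heparan sulfate sulfotransferase, showed a similar course (2.52), and Misp3 and Ptger3, a prostaglandin E2 receptor, fell in WT and rose in Med14 S983A (2.47 and 2.32).

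Slc16a1, the lactate and pyruvate transporter MCT1 (rn6, chr2:207108552-207128561), was at 7.31 and 7.39 TPM in WT CON, 8.36 and 9.04 in WT 8 h FSK, 9.78 and 9.59 in Med14 S983A CON and 75.3 and 73.1 in Med14 S983A 8 h FSK. It rose 7.66-fold in Med14 S983A and did not pass the fold minimum in WT, and the difference was 2.60 ± 0.11. Stbd1, a glycogen-binding protein, and Slc9b2, a sodium/proton exchanger, also rose in Med14 S983A alone (2.23 and 2.35).

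Gdf15, a secreted factor of cellular stress (rn6, chr16:20555395-20557978), rose in both genotypes, from 10.3 and 10.7 to 26 and 27.6 TPM in WT and from 29.6 and 36.2 to 423 and 394 TPM in Med14 S983A. The 4 groups did not overlap, and the difference was 2.33 ± 0.13. Sema3a, a secreted guidance cue, and Tnfrsf21, a death receptor, likewise rose in both and more in Med14 S983A (2.55 and 2.08). Txnip, the thioredoxin-interacting protein, fell in both, 149-fold in WT and 18.4-fold in Med14 S983A. Its treated levels lay between 1.99 and 3.04 TPM in all 4 libraries, whereas at CON it was at 329 and 312 TPM in WT and 55.9 and 52.9 TPM in Med14 S983A. The difference of 2.87 ± 0.12 thus came with unlike levels at CON.

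**Figure D3:**
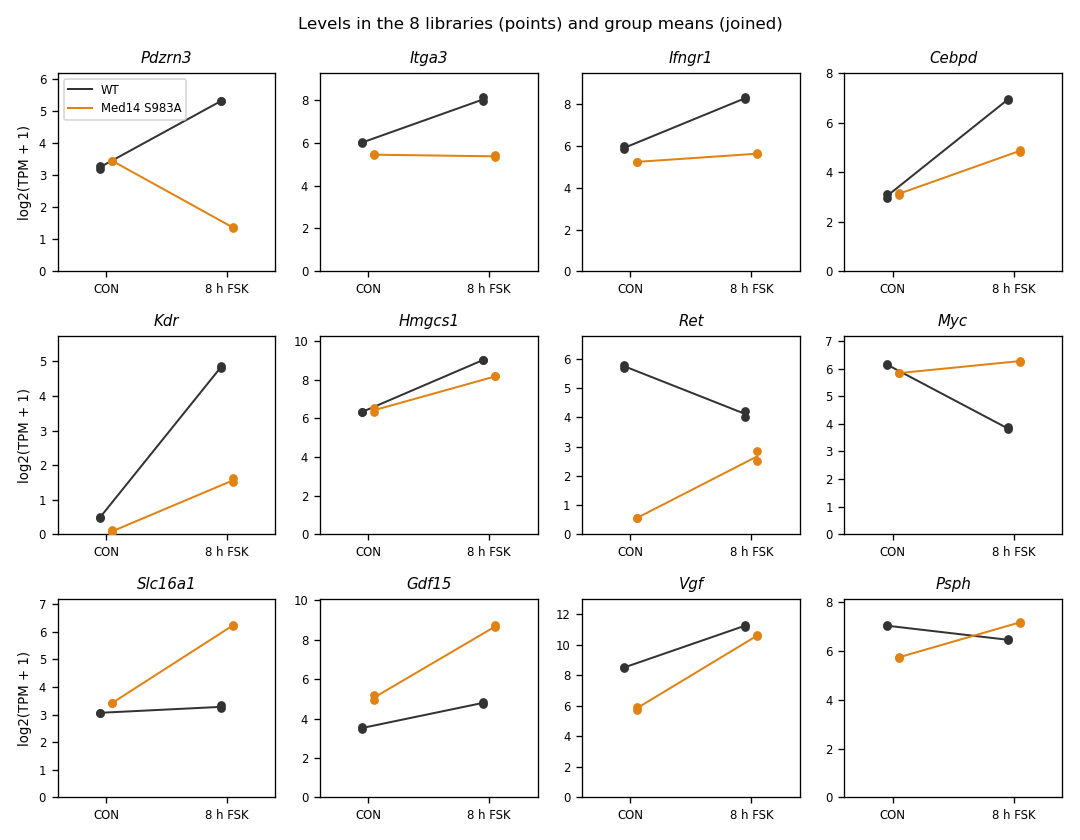
Levels of 12 genes in the 8 libraries as log2(TPM + 1), with CON and 8 h FSK on the horizontal axis, WT in black, Med14 S983A in orange and lines joining group means. Pdzrn3 and Ret move in opposite directions in the genotypes. Itga3 and Ifngr1 pass both thresholds for a rise only in WT, and Slc16a1 only in Med14 S983A.

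In 77 higher and 48 lower genes, 1 genotype was under 1 TPM in both of its groups. Nmu, which encodes the peptide neuromedin U, was at 0.123 and 0.452 TPM in WT CON and 58.6 and 60.9 in WT 8 h FSK, and at 0.109 TPM or less in each of the 4 Med14 S983A libraries (difference -5.50 ± 0.15). Its fold in Med14 S983A rests on levels near 0, and the edgeR test on recovered fragments did not call it (-5.87). Rph3a, an effector of Rab3 in exocytosis, fell from 19.7 and 18.7 to 0.999 and 0.916 TPM in Med14 S983A and was under 0.5 TPM in WT. Nexn, an actin-binding protein, was under 0.4 TPM except in Med14 S983A 8 h FSK, at 15 and 16.6 TPM (3.88 ± 0.15). Pgm5 (4.03) and Cyp4f1 (3.74) fell in WT and were under 0.4 TPM throughout in Med14 S983A.

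On log2(TPM + 1) a gene that starts low in a genotype can show a difference at equal fold changes, so the calls were read beside edgeR on recovered fragments, which compares folds. Of the 1424 calls, edgeR with TMM normalization made 1229 in the same direction, and 38 had the opposite sign. Among the 780 called genes whose mean reached 5 TPM in all 4 groups, 718 (92.1%) were called in the same direction and 0 had the opposite sign. Gprc5a, an orphan receptor, was at 0.493 and 0.597 TPM in WT CON, 70.9 and 78.5 in WT 8 h FSK, 0.062 and 0.018 in Med14 S983A CON and 13.6 and 13.6 in Med14 S983A 8 h FSK. Its difference was -1.80 on log2(TPM + 1) and turned to 1.07 with edgeR.

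The delayed genes that the study followed in these cells include Kdr, the VEGF receptor 2, Plat, the tissue plasminogen activator, and Osbpl6, an oxysterol-binding protein. Kdr was at 0.399 and 0.410 TPM in WT CON, 26.8 and 28.4 in WT 8 h FSK, 0.081 and 0.043 in Med14 S983A CON and 1.83 and 2.09 in Med14 S983A 8 h FSK. Its difference was -2.87 ± 0.12 and stayed called by edgeR at -1.16. Plat rose from 0.955 and 1.08 to 63.7 and 71.8 TPM in WT and from 0.058 and 0.015 to 2.14 and 2.06 TPM in Med14 S983A, so its treated level was lower in Med14 S983A (difference -3.51 ± 0.13). On the fold scale of edgeR the difference was -0.31 and was not called. Osbpl6 rose 2.70-fold in WT and 1.18-fold in Med14 S983A, which did not pass (difference -1.10 ± 0.13). Of 18 tested genes named by the study for delayed or sustained responses, 2 were called higher and 6 lower, against 7.65% and 6.21% of all genes. Their median difference was -0.39 against 0.04 over all genes. The study named them for their behaviour in these cells or in islets, partly from RT-qPCR and other assays and partly from RNA-seq of these cells, so their count is no independent evidence of direction.

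Among 22 tested genes that CREB induces or that feed back on cAMP and kinase signals, the difference was called higher for 8 and lower for 3, with a median of 0.44. Over all genes, 7.65% were called higher and 6.21% lower. The median change of the 22 was 1.64 for WT and 2.04 for Med14 S983A. At CON their median genotype difference in level was -0.65, against -0.07 over all genes, and the CON libraries enter the difference in the response. Crem, whose inducible isoform represses cAMP response elements, rose from 11.7 and 10.6 to 171 and 172 TPM in WT and from 5.48 and 3.97 to 209 and 208 TPM in Med14 S983A. The treated levels were higher in Med14 S983A and the CON levels lower, and the difference was 1.38 ± 0.12. The nuclear receptor Nr4a2 (0.98), the cAMP phosphodiesterase Pde4d (0.98), the kinase Sik1 (0.79) and the phosphatases Dusp5 (0.89) and Dusp4 (0.75) were also higher, whereas Dusp10 (-0.66), Nr4a3 (-0.66) and Pim1 (-0.59) were lower. Of these last, Nr4a3 rose in both genotypes and by less in Med14 S983A, whereas Dusp10 and Pim1 fell in Med14 S983A and did not pass both thresholds in WT. The Nr4a3 call was lost with edgeR, and those of Nr4a3 and Pim1 on leaving out a library. The genotype difference in level was called at CON for Crem (-1.10) and Pde4d (-0.71). After 8 h of FSK it was called for neither gene (0.28 and 0.27). For Nr4a2 it was called at neither point (-0.43 and 0.55). The study follows some members of this list and of the next in these cells, so the counts are not independent evidence.

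Among 17 tested AP-1 and early response factors, 5 were higher and 6 lower, against 7.65% and 6.21% of all genes, with a median of -0.04. Fosb was at 0.306 and 0.283 TPM in WT CON and 24.2 and 23.5 in WT 8 h FSK, against 0.228 in both Med14 S983A CON libraries and 2.25 and 2.23 in Med14 S983A 8 h FSK (difference -2.86 ± 0.12). Egr4 (-1.79), Fosl1 (-1.63), Jund (-0.70), Ier2 (-0.62) and Egr1 (-0.61) were lower, and Myc, Maff (1.45), Atf3 (1.17), Jun (0.71) and Junb (0.71) were higher. Fos was at 28.6 and 26.9 TPM in WT 8 h FSK and 24.1 and 19.7 in Med14 S983A 8 h FSK, and its difference of 0.29 ± 0.15 was not called (adjusted p = 0.102 by limma), though it was by edgeR with TMM at 0.65. Of 30 genes of receptors, cyclases, kinase subunits and coactivators of the cAMP pathway, Pde1c, a calcium-dependent phosphodiesterase (0.85), Pkia, an inhibitor of protein kinase A (0.76), and Adcy1 (0.63) were higher and Adcy5 (-0.62) was lower. These 3 higher and 1 lower of 30 were near the shares of all genes, and the list median was 0.075 against 0.04 over all genes. The Adcy1 call was lost under median centring (0.57), under ERCC scaling (0.54) and without any of 3 libraries: replicate 1 of Med14 S983A 8 h FSK (0.57), of WT 8 h FSK (0.53) or of WT CON (0.51).

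The cAMP response element TGACGTCA, a palindrome that CREB binds, lay between 250 bases upstream and 50 bases downstream of a start in 3.43% of 8201 tested genes with a RefSeq promoter, against 1.83% of all 33469 promoters of that table. It was there in 2.6% of 615 genes with a higher response and 3.28% of 488 with a lower response. For the genes that rose with FSK it was 5.53% of 705 in WT and 4.94% of 951 in Med14 S983A. The shorter motif TGACG, searched on both strands and contained in the palindrome, lay in 34.2% of tested genes, 29.3% of higher and 29.9% of lower genes. No test was made of these shares, and a match is a description of the sequence, not of binding. Windows of 60 bases around the palindrome, in capitals, are shown for 5 called genes that hold it, since they set the same element beside responses of either direction. They come from RefSeq on GRCr8, which is not the build of the expression table, and the palindrome begins 56 bases before the start in Crem, 90 in Vgf, 52 in Epha2, 142 in Cartpt and 123 in Scg2. A second RefSeq start of Crem also has the palindrome, 35 bases before it, and its window is not shown. Epha2, Cartpt and Scg2 were chosen after their values were seen.
Crem, chr17:58984715-58984774, plus strand: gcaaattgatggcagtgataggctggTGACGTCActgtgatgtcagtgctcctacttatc
Vgf, chr12:25277077-25277136, minus strand: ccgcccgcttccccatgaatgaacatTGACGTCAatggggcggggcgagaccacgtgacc
Epha2, chr5:158888551-158888610, plus strand: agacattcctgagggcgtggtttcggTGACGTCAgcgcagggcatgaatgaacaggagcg
Cartpt, chr2:32991344-32991403, minus strand: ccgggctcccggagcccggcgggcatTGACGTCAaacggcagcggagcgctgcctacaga
Scg2, chr9:88256956-88257015, minus strand: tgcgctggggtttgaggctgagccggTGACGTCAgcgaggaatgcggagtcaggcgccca

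These 5 genes with the same element differed in direction. Vgf, a granule protein and peptide precursor, rose from 367 and 360 to 2318 and 2552 TPM in WT and from 51.9 and 59.4 to 1584 and 1530 TPM in Med14 S983A, where the fold was larger and the level lower (difference 2.05 ± 0.10). Epha2, an ephrin receptor, rose from 2.02 and 2.11 to 19.9 and 20.9 TPM in WT and from 0.918 and 0.973 to 56.4 and 55.4 TPM in Med14 S983A (2.07 ± 0.14). Cartpt, a neuropeptide precursor, rose 12.2-fold in WT and 7.88-fold in Med14 S983A (-0.59 ± 0.10), a call lost without any of 4 of the 8 libraries: replicate 1 of WT CON (-0.49), of WT 8 h FSK (-0.57) or of Med14 S983A 8 h FSK (-0.49), or replicate 2 of Med14 S983A CON (-0.55). Scg2, secretogranin II, fell in both, 2.91-fold in WT and 4.73-fold in Med14 S983A (-0.70 ± 0.05).

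Genes of the ATF4 and amino acid response leaned higher in Med14 S983A. ATF4 is the transcription factor of the integrated stress response and induces amino acid transport, synthesis and tRNA charging. Of 28 tested members, 16 were called higher and 1 lower, against 7.65% and 6.21% of all genes, and edgeR called 11 higher and 2 lower. The median difference was 0.62, which was 0.58 above that of all genes and 0.57 above it with ERCC scaling. Their median change was 0.95 for WT and 1.60 for Med14 S983A. Psph, the last enzyme of serine synthesis (rn6, chr12:30514128-30526551), was at 129 and 133 TPM in WT CON and 86.0 and 89.2 in WT 8 h FSK, which did not pass, and rose from 53.7 and 51.6 to 146 and 143 TPM in Med14 S983A (difference 2.02 ± 0.07). The treated order of Psph was thus the reverse of that at CON. Over the list, the median genotype difference in level at CON was 0.35, against -0.07 over all genes and -1.30 for Psph. With ERCC scaling 13 members were higher and 1 lower, and Atf4, Sars1 and Wars1 were among the calls lost. The transporters Slc7a1 (1.297), Slc7a11 (0.80), Slc7a5 (0.72) and Slc3a2 (0.70), the stress genes Sesn2 (1.15), Ddit4 (1.08), Ddit3 (1.07) and Trib3 (0.85), Atf4 (0.61) and the tRNA synthetases Lars1 (0.80), Yars1 (0.75), Sars1 (0.63) and Wars1 (0.61) were higher, whereas the proline enzyme Pycr1 was lower (-1.11).

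In the neighbouring list of ER folding and unfolded protein response genes, 27 of 33 rose in each genotype, and the response was higher for 5 and lower for 3 (median 0.15). Over all genes, 7.65% were called higher and 6.21% lower. The sensors Atf6 (0.98) and Ern1 (0.93), the degradation factor Herpud1 (0.83), the oxidase Ero1b (0.59) and Ddit3 were higher, and the folding genes Sdf2l1 (-1.07) and Fkbp11 (-0.77) and the transcription factor Xbp1 (-0.72) were lower. The Ero1b call was lost under median centring, ERCC scaling and edgeR and on leaving out a library. Among 17 cytosolic heat shock genes 3 were higher, Hspa12a (1.89), Bag3 (0.81) and Hspa4l (0.60). The Hspa4l call was lost under median centring (0.55), ERCC scaling (0.49) and edgeR (0.57), and without replicate 1 of Med14 S983A 8 h FSK (0.56) or of WT 8 h FSK (0.54) or replicate 2 of Med14 S983A CON (0.52). Of 21 targets of NRF2, the antioxidant transcription factor, Hmox1 (1.27), Gclc (1.06), Slc7a11 and Nfe2l2 (0.60) were higher and Gstm1 (-1.58) was lower. The Nfe2l2 call was lost under the same settings as that of Ero1b.

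Cholesterol synthesis and uptake was the list with the lowest median. Sterol regulatory element binding proteins control these genes, and most rose in both genotypes, 18 of 26 in WT and 16 in Med14 S983A. Of the 26, 10 were called lower and 0 higher by limma, against 6.21% lower of all genes. At an unadjusted p under 0.05, 23 were lower and 1 higher, and edgeR called 13 lower and 0 higher. Among the 10, 7 rose in both genotypes and by less in Med14 S983A. The median difference was -0.52, which was 0.56 below that of all genes with deposited TPM and also with ERCC scaling. Hmgcs1, which commits acetyl groups to the mevalonate pathway (rn6, chr2:52427579-52445082), was at 80.8 and 78.6 TPM in WT CON and 90.1 and 79.9 in Med14 S983A CON, which overlapped, and rose to 520 and 517 TPM in WT and 286 and 288 in Med14 S983A (difference -0.94 ± 0.08). Insig1, a sterol sensor (-1.06), Idi1 (-0.97), Fdps (-0.84), Mvk (-0.72), Ebp (-0.67), Sqle (-0.64), Fdft1 (-0.62) and Hsd17b7 (-0.61) were also lower. Ebp fell in Med14 S983A and did not pass in WT, and Mvk passed in neither. At CON the list had a median genotype difference in level of 0.31, against -0.07 over all genes. Insig1 was called higher in Med14 S983A at CON (0.92) and was not called after 8 h of FSK (-0.13). Hmgcs1 and Idi1 were not called at CON (0.09 and 0.35) and were lower in Med14 S983A after FSK (-0.85 and -0.62).

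The remaining metabolic lists moved less as groups. Over all genes, 7.65% were called higher and 6.21% lower. Of 18 glycolysis and glucose entry genes, 5 were higher and 1 lower (median 0.35), with Slc16a1, Pfkfb3, which makes an activator of glycolysis (1.58), Pkm (0.66), Gpi (0.65) and Pgk1 (0.63) higher and Aldoc lower (-1.61). With ERCC scaling 2 were higher and 2 lower. The list of TCA cycle and pyruvate entry genes held 2 higher and 2 lower of 31, near the shares of all genes. Among them were kinases that inhibit pyruvate dehydrogenase: Pdk1 (0.78) and Pdk3 (0.78) were higher and Pdk2 was lower (-0.82). In fatty acid synthesis Acsl5 (0.89), Elovl7 (0.87) and Acaca (0.68) were higher and Acss2 (-0.82) was lower of 23. In fatty acid oxidation Acaa2 was higher (0.70) of 21 and none was lower by limma, whereas edgeR called 1 higher and 3 lower and ERCC scaling gave 0 higher and 2 lower, with Acaa2 at 0.58. Of 10 glucose response genes, Txnip and its relative Arrdc4 (0.97) were higher and Khk (-0.95) was lower. For 48 respiratory chain genes 1 was lower (Ndufs7, -0.75).

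The difference was called higher for 2 of 20 tested insulin and granule genes and lower for 5, against 7.65% and 6.21% of all genes, and the median difference was -0.34. With ERCC scaling 1 was higher and 6 were lower, against 557 higher and 937 lower of the 10275 genes. Pcsk1, the prohormone convertase that starts proinsulin cleavage (rn6, chr2:91450164-91497091), was at 103 and 96.8 TPM in WT CON and 87.9 and 94.7 in WT 8 h FSK, and fell from 173 and 152 to 59.4 and 58.4 TPM in Med14 S983A (-1.32 ± 0.08). Its treated Med14 S983A libraries were below all others. Pcsk2, the second convertase (-0.74), Iapp, which encodes amylin (-0.92), Scg2 and Ptprn (-0.59) were also lower. Ins1 was at 34501 and 33716 TPM in WT CON, 65627 and 67834 in WT 8 h FSK, 38834 and 42395 in Med14 S983A CON and 61034 and 59014 in Med14 S983A 8 h FSK, and its difference of -0.40 ± 0.08 was under the fold minimum. The same was true of Ins2 (-0.36 ± 0.08), which fell in Med14 S983A from a CON level of 32620 and 37516 TPM, against 2885 and 2991 TPM in WT CON.

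Beta-cell transcription factors held 1 higher and 4 lower of 18, against 7.65% and 6.21% of all genes, with a median of -0.31. Neurod1, an activator of the insulin gene (rn6, chr3:66414321-66417617), fell from 234 and 214 to 64.8 and 58.8 TPM in WT and from 215 and 221 to 23.07 and 23.04 TPM in Med14 S983A (-1.34 ± 0.07). The CON levels overlapped and the treated levels did not. Isl1 (-1.12), Nkx2-2 (-0.78) and Foxa1 (-0.67) were lower and Foxo1 was higher (0.63), the last not with median centring or ERCC scaling. Of 31 genes of exocytosis, 8 were lower and 3 higher (median -0.23), the latter a share near the 7.65% of all genes: the granule proteins Doc2b (-1.26), Sytl4 (-1.08), Rab3a (-0.84) and Rab27a (-0.63) and the SNARE Snap25 (-0.74) were among the former, and Cplx2 (1.14), Syt5 (1.07) and Syt4 (0.90) were the latter. Of 33 ion channel genes, Scn3a (1.13), Kcnk3 (0.71) and Cacna2d2 (0.68) were higher and Itpr1 (-1.33), Kcnn1 (-1.004) and Trpm5 (-0.81) were lower, and with ERCC scaling 5 were lower. With deposited TPM, 3 of the 33 were higher and 3 lower, near the shares of all genes.

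Among 8 tested neuropeptide and hormone genes, Gast, gastrin (1.32), Gcg (0.93) and Pthlh (0.89) were higher and Iapp and Cartpt were lower. That is 3 and 2 of 8, against 7.65% and 6.21% of all genes. Gcg rose from 165 and 169 to 1225 and 1345 TPM in WT and from 6.09 and 6.56 to 102 and 110 TPM in Med14 S983A, so its level stayed lower in Med14 S983A while its change was larger. Of the 4 tested markers of other pancreatic and stromal cells, 2 were called, both higher, and Gcg was among them. The summed level of all 33 markers was 183.7 to 184.7 TPM in WT CON, 1263 to 1386 in WT 8 h FSK, 24.98 to 25.51 in Med14 S983A CON and 222.5 to 234.7 in Med14 S983A 8 h FSK. Sst and Ppy, the hormones that define delta and PP cells, were under 0.1 TPM in each group, and the part of other cells in any difference was not tested.

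Housekeeping complexes showed few calls. Over all genes, 7.65% were called higher and 6.21% lower. Of 72 cytosolic ribosomal protein genes limma and edgeR called 0 in either direction, and 45 were lower and 0 higher at an unadjusted p under 0.05, with a median of -0.17. Of 38 proteasome genes limma called 0 and edgeR called 1 lower, and 12 were higher and 6 lower at an unadjusted p under 0.05 (median 0.09). Rpl39 (-0.41 ± 0.12) and Psme1 (-0.55 ± 0.05) differed most, each under the fold minimum, and Psme1 passed it with median centring (-0.60) and ERCC scaling (-0.66). Of 66 mitochondrial ribosomal genes 1 was lower (Mrpl23, -0.59), of 30 Mediator subunits 1 was higher (Cdk8, 0.68, not with ERCC scaling at 0.57), and of 49 cell cycle genes the inhibitor Cdkn1a was higher (0.89) and the inhibitor Cdkn1b was lower (-0.94). The Mrpl23 call was lost without any of 3 of the 8 libraries: replicate 2 of Med14 S983A CON (-0.53) or of Med14 S983A 8 h FSK (-0.56), or replicate 1 of WT 8 h FSK (-0.57). Of 16 clock genes, Ciart (1.84), Nfil3 (1.27), Bhlhe40 (0.65) and Tef (0.62) were higher and Npas2 (-0.93) and Per3 (-0.61) were lower, and with ERCC scaling 2 were higher. Hrk (0.78) and Bbc3 (0.68), which promote apoptosis, were higher of 17 in the BCL2 list. The Bbc3 call was lost with ERCC scaling (0.57) and without replicate 1 of Med14 S983A 8 h FSK (0.57) or of Med14 S983A CON (0.47). Among 17 interferon response genes Ifi27l2b was higher (1.82) and Usp18 (-1.21), Mx2 (-0.71) and Irf3 (-0.60) were lower.

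Over all lists, 138 members were called, and leaving out 1 library in turn lost 30 of these calls at least once, ERCC scaling 18, edgeR with TMM 16 and median centring 11. The calls lost with edgeR included Plat, Fosl1, Slc7a11 and Trib3, and those lost without a library included Dusp4, Nr4a3, Egr1, Pim1, Sqle and Hsd17b7. Members named here beyond the 3 furthest from 0 in each list were chosen after their values were seen.

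**Figure D4:**
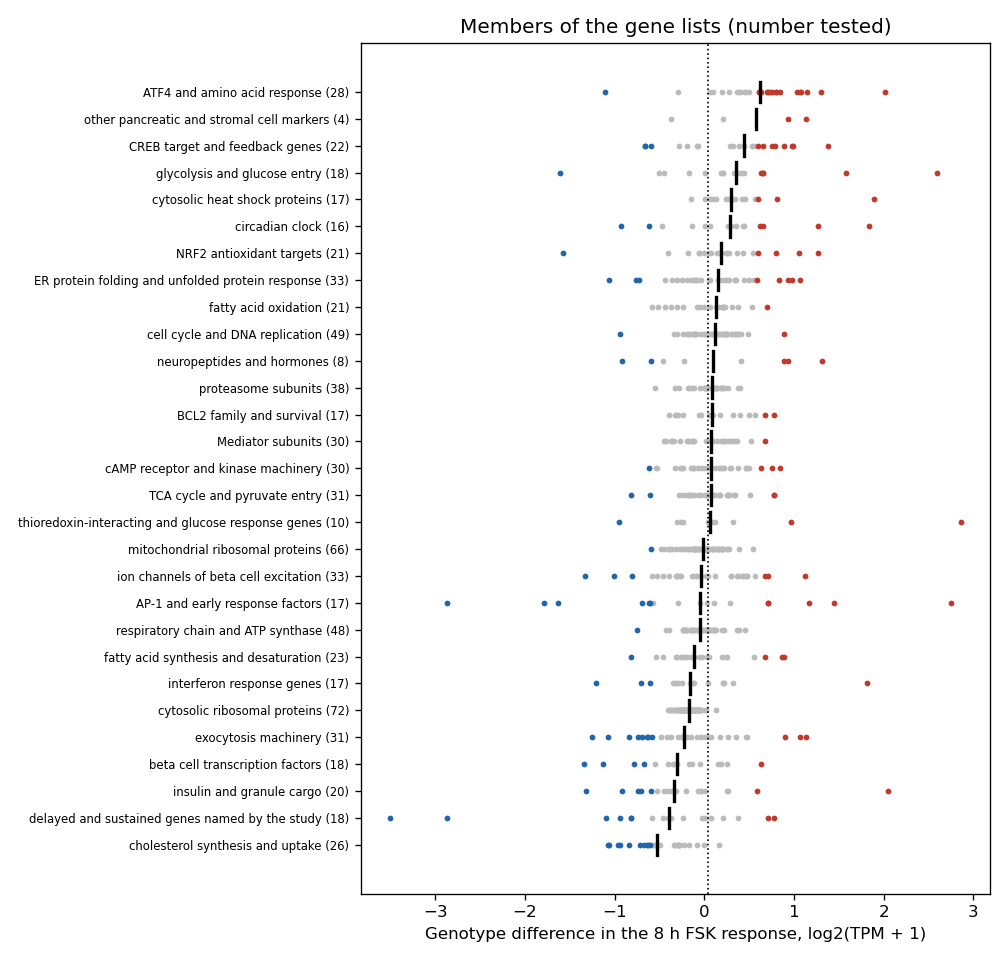
Genotype difference in the 8 h FSK response on log2(TPM + 1) (horizontal axis) for tested members of 29 gene lists, with called genes in red (higher) and blue (lower), others in grey, list medians as black bars and the median of all genes, 0.04, dotted. The ATF4 list has the highest median (0.62) and the cholesterol list the lowest (-0.52). The order of these 2 lists is the same with ERCC scaling. With edgeR the cholesterol list is again the lowest (-0.59), but the ATF4 list (0.51) is not the highest. The lists of neuropeptides and hormones (0.71) and of other pancreatic and stromal cell markers (0.68) then lie above it.

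At 16 h of FSK the genotype difference was not the same as at 8 h for 934 genes (9.09%), 377 of them higher and 557 lower at 8 h, in a test of the difference itself. The 8 h and 16 h differences share the CON libraries, so their values are set side by side. For cholesterol genes the median was -0.52 at 8 h and -0.95 at 16 h, and 10 of 26 were called higher and 1 lower at 8 h than at 16 h. Idi1 went from -0.97 to -1.99 and Hmgcs1 from -0.94 to -1.81, both past the threshold. For ATF4 genes the median was 0.62 at 8 h and 0.04 at 16 h, with 10 of 28 higher at 8 h and 0 lower, such as Sesn2 (1.15 and 0.00) and Ddit3 (1.07 and -0.15). For cytosolic ribosomal genes it was -0.17 and 0.31, with 16 of 72 lower at 8 h. Ret (3.75 and 1.88), Gdf15 (2.33 and 1.26), Stbd1 (2.23 and 0.95) and Anxa10 (-2.33 and -1.19) differed between the times, and Itga3 (-2.09 and -1.06) and Pdzrn3 (-4.16 and -2.72) did too. Ifngr1 (-1.98 and -1.48), Misp3 (2.47 and 2.30) and Sema3a (2.55 and 2.54) were not called. Of these, Ifngr1 had an adjusted p of 1.26e-06 by limma and missed only the fold minimum (-0.503).

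With the peptide exendin-4 (Ex-4), which activates the GLP-1 receptor and was given for 8 h at 10 nM, the genotype difference departed from that of FSK for 843 genes (8.2%), 322 higher and 521 lower with FSK. These again share the CON libraries, and the cAMP that each agent raised was not compared here. The median of the cholesterol list was -0.52 with FSK and 0.00 with Ex-4, and 9 of 26 were called lower with FSK. The ATF4 list had 0.62 and 0.34, with 6 of 28 higher and 2 lower. Anxa10 had -2.33 with FSK and -0.01 with Ex-4, Tcerg1l -2.02 and -0.01 and Epha2 2.07 and 0.08, all past the threshold for the difference. Plat had -3.51 and -3.03, which did not pass, and Kdr -2.87 and -2.25, which did.

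**Figure D5:**
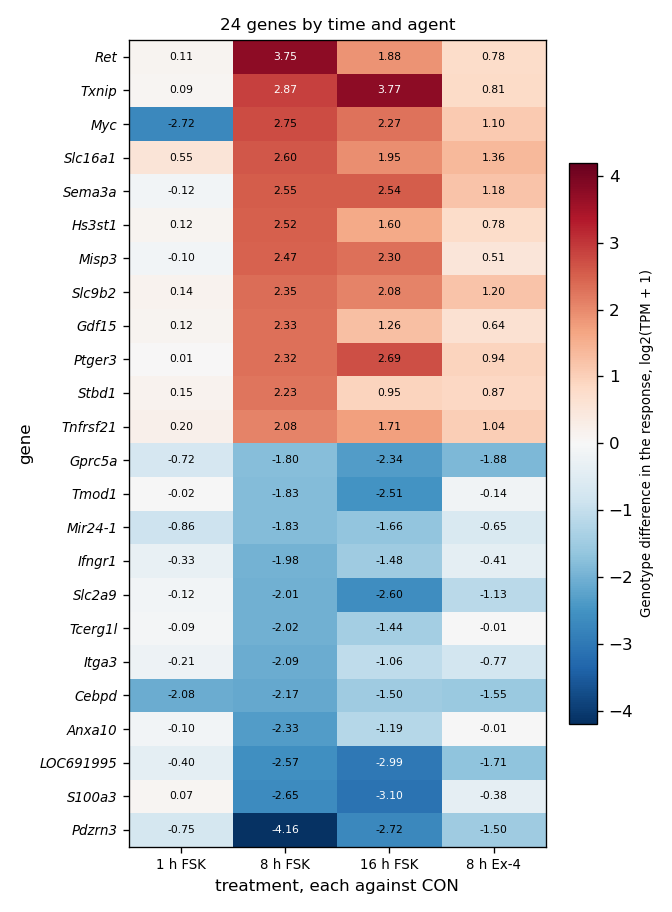
Genotype difference in the response on log2(TPM + 1) for 24 genes (rows), the 12 highest and 12 lowest called differences at 8 h of FSK among genes that reached 5 TPM in each genotype, after 1, 8 and 16 h of FSK and 8 h of Ex-4 (columns), each against the shared CON libraries. Myc goes from -2.72 at 1 h to 2.75 at 8 h and Cebpd is at -2.08 at 1 h, whereas Anxa10 and Tcerg1l are near 0 at 1 h and with Ex-4. The sign of Gprc5a turns with edgeR at 8 h of FSK.

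At 1 h of FSK the genotype difference was 0.11 for Ret, -0.10 for Anxa10 and 0.15 for Stbd1, none of them called. Myc and Cebpd were called at -2.72 and -2.08, Nmu at -1.87, Pdzrn3 at -0.75 and Crem at 1.74. The change of these values between 1 h and 8 h was not tested.

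The calls were spread over the genome. Between 10.6% (chromosome 12) and 17.8% (chromosome 2) of the tested genes of a chromosome were called. At CON, running medians over 51 neighbouring genes reached -1.07 on chromosome 4, 0.95 on chromosome 5 and 0.93 on chromosome 9, so that runs of neighbouring genes differed in level between the genotypes before treatment. In the same windows the median difference in the response was 0.13, 0.04 and -0.17, against 0.04 over all genes. In the last, 3 of 51 genes were called higher and 12 lower, against 7.65% and 6.21% of all genes. The highest running median of the difference itself was 0.45 (0.34 with ERCC scaling), on chromosome 18 (rn6, 30381322 to 40597674). There 12 of 51 genes were called higher and 0 lower, against the same shares of all genes, in a window picked for its high median. The window holds the beta and gamma protocadherin genes from Pcdhb3 to Pcdhgc3, near-identical or exon-sharing cell adhesion genes among which reads cannot be assigned with certainty. The difference had a Spearman rho of 0.18 with exon length and 0.02 with the mean level over genes, given as a description.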

How the data were processed

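Directional RNA-seq libraries, made from total RNA with ERCC RNAs spiked in, were aligned by the authors with STAR 2.5.3a to rn6 with the ERCC sequences, and the authors quantified exons with HOMER 4.11.1 and deposited TPM values, with the transcript length, for 28 libraries. The authors also deposited ERCC counts per library, and their own tests used DESeq2 1.24.0. Deposited TPM sums to a fixed total, so a change in the total RNA of a cell is not visible in it without the spike-ins, and overlapping or near-identical genes can share reads. The 19223 lines held 92 ERCC sequences, which were dropped, and 17455 symbols, each kept as its transcript with the highest mean TPM.

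Values were tested as log2(TPM + 1) in the 10275 genes whose mean reached 1 TPM, with limma 3.58.1 (R 4.3.3) over all 28 libraries as 14 groups of 2, which leaves 14 residual degrees of freedom. Benjamini-Hochberg adjusted p-values are two-sided, and calls needed a value under 0.05 together with a change above 1.5-fold. A fold change on this scale is understated for low genes. Multiplied by length, deposited TPM values gave whole reads for 100.0% of 137335 low values at a tolerance of 0.05 (22.6% would by rounding alone), and edgeR 4.0.16 and DESeq2 1.42.0 were run on the recovered fragments as alternatives. Other alternatives were median centring, scaling on ERCC counts, a pseudocount of 0.1, a minimum of 5 TPM or none, only the libraries compared, no fold minimum, the replicate number as a block, and leaving out each library. Scripts were tested on simulated data. Depth was 42551133 to 92635979 fragments in the 8 libraries, and n = 2 a group limits precision more than counting does.

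Samples were grouped by their labels. Same-numbered libraries of the 4 groups had deviations correlated at -0.0804 to 0.215, so the numbers were not used as pairs. Replicates differed by more than sampling noise, with a chi-square of 4.6 to 9.74 per degree of freedom. Named genes were Med14, the 12 highest and 12 lowest called differences among genes that reached 5 TPM in each genotype, the 3 highest and 3 lowest with a genotype under 1 TPM, up to 3 called members of each list (or the member furthest from 0), and Kdr, Osbpl6, Plat, Ins1, Ins2, Fos, Hmgcs1 and Txnip. The comparison, the lists and the named genes were chosen with earlier results of these data known. Results for a few genes that this rule names are not reported here.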

Additional observations from a re-analysis of the deposited data

Results flagged for a closer look

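Each of the following was marked because the genotypes differed in the same contrast by a test of the difference itself. The 8 h FSK response was higher in Med14 S983A for 786 genes and lower for 638. The genotype difference was higher at 8 h than at 16 h of FSK for 377 genes and lower for 557, and higher with FSK than with Ex-4 at 8 h for 322 and lower for 521.

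Among single genes expressed in both genotypes, the log2 difference was 3.75 for Ret, 2.87 for Txnip, 2.75 for Myc, 2.60 for Slc16a1, 2.55 for Sema3a, 2.52 for Hs3st1, 2.47 for Misp3, 2.35 for Slc9b2, 2.33 for Gdf15, 2.32 for Ptger3, 2.23 for Stbd1 and 2.08 for Tnfrsf21. In the other direction it was -4.16 for Pdzrn3, -2.65 for S100a3, -2.57 for LOC691995, -2.33 for Anxa10, -2.17 for Cebpd, -2.09 for Itga3, -2.02 for Tcerg1l, -2.01 for Slc2a9, -1.98 for Ifngr1, -1.83 for Mir24-1, -1.83 for Tmod1 and -1.80 for Gprc5a, the last positive with edgeR and DESeq2.

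With a genotype under 1 TPM, the difference was 4.03 for Pgm5, 3.88 for Nexn, 3.74 for Cyp4f1, -5.50 for Nmu and -2.99 for Rph3a. For genes that the study or earlier results name it was -3.51 for Plat, -2.87 for Kdr, -1.10 for Osbpl6 and -0.94 for Hmgcs1. Plat was not called by edgeR.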

How the results depend on the processing

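Of the 99 called genes named by the rule or chosen after, 88 stayed called under every alternative run for them. The number of alternatives was 19 for most and 18 for the 8 of these genes that the 5 TPM minimum leaves out. Many of the 99 were picked for large differences, so this share does not stand for all calls. With ERCC scaling, 555 of all 786 higher calls and 637 of all 638 lower calls were made in the same direction. With DESeq2 on ERCC size factors, 565 and 570 were. Gprc5a turned from -1.80 to 1.07 with edgeR and TMM, 1.00 with edgeR on ERCC library sizes, 1.14 with DESeq2 and 1.06 with DESeq2 on ERCC size factors, and was -0.23 with a pseudocount of 0.1. Without the fold minimum the counts were 3110 higher and 2398 lower for the genotype difference, 2197 and 6480 for WT, 2739 and 5951 for Med14 S983A, 2001 and 2863 for 8 h against 16 h, and 1791 and 2446 for FSK against Ex-4. With ERCC library sizes, lower genotype differences numbered 1123 by edgeR and 1095 by DESeq2. Median centring gave 1930 risen and 1848 fallen genes in WT and 2225 and 2207 in Med14 S983A. Risen genes numbered 1719 by edgeR and 1846 by DESeq2 in WT and 2058 and 2176 in Med14 S983A, and edgeR gave 575 higher at 8 h than at 16 h. Leaving out 1 library gave 720 to 857 higher and 601 to 734 lower for the genotype difference, 871 to 933 and 3456 to 3730 for WT, 1127 to 1260 and 3491 to 3618 for Med14 S983A, 343 to 421 and 506 to 672 for 8 h against 16 h, and 297 to 346 and 498 to 622 for FSK against Ex-4. Where a library was left out, its group's lone library was assumed to vary like the other groups. With the replicate block, the genotype difference was called higher for 786 and lower for 638 genes, and the pairing of numbers rests on no label. The cause of these shifts was not tested.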

Other observations

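In all, 18 genes were called in opposite directions by the genotypes' own responses, and those named here were chosen after their values were seen. Of these, 12 fell in WT and rose in Med14 S983A. They include Efnb1, an ephrin ligand (-0.75 in WT and 0.89 in Med14 S983A on the log2 scale), Gadd45a, a growth arrest gene (-0.59 and 0.73), Tjp3, a tight junction protein (-0.85 and 0.69), and Slc1a5, a glutamine transporter that was low in these cells (-1.28 and 0.65). The other 6 rose in WT and fell in Med14 S983A, among them Nr2f2, an orphan nuclear receptor (1.42 and -0.63), and Tgfb1, a transforming growth factor (0.82 and -0.84).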
